A study of Mus musculus and Rattus norvegicus with 30 samples.

Results

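Fibronectin, the elastic fibre genes and the small proteoglycans were followed through 2 heart preparations as a set of 10 genes: Fn1, Eln, Fbn1, Fbln1, Lox, Bgn, Dcn, Lum, Fmod and Vcan. The genes were picked by name, with earlier results of these data known. All 10 were found in each species, among 32545 genes of the rat table and 54307 genes of the mouse tables. All 10 also passed the filter on low counts, which left 15181 rat and 14047 mouse genes for testing. The rat cells were neonatal rat ventricular myocytes (NRVM), isolated from pups of postnatal day 3, separated from fibroblasts by letting those attach to plastic first, and plated with bromodeoxyuridine, which stops dividing cells. The DKD cells carried siRNA at 25 nM against ERRalpha and ERRgamma, the estrogen-related receptors, which are orphan nuclear receptors known for driving mitochondrial genes. The S cells carried a scramble siRNA. Both kinds of cell received 915, a pan-ERR agonist, at 10 µM or DMSO for 24 hours, which gave the groups DKD_915, DKD_Veh, S_915 and S_V with 3 libraries each. The mouse hearts were left ventricles of WT animals after transverse aortic constriction (TAC), which loads the ventricle with pressure, or after a sham operation. The animals received the ERR agonist 332 by intraperitoneal injection or vehicle, which gave TAC_332 (n = 5), TAC_Veh (n = 5), Sham_332 (n = 5) and Sham_Veh (n = 3). All hearts are listed at 6 weeks after surgery. Neither strain, age nor sex of the mice is in the labels, and they do not say whether rat replicates came from separate isolations, so p-values there measure the spread between libraries, which may be technical.

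These genes encode the meshwork around heart cells that is not collagen. Fibronectin (Fn1) is laid down as fibrils through integrin receptors and is the scaffold on which other matrix proteins assemble. Elastic fibres are built from a core of elastin (Eln) on fibrillin-1 microfibrils (Fbn1). Fibulin-1 (Fbln1) binds both fibronectin and elastin, and lysyl oxidase (Lox) cross-links elastin and collagen. Biglycan (Bgn), decorin (Dcn), lumican (Lum) and fibromodulin (Fmod) are small leucine-rich proteoglycans, secreted proteins with sugar side chains that bind collagen fibrils and set their spacing and thickness. Versican (Vcan) is a large chondroitin sulfate proteoglycan that binds hyaluronan. Fibroblasts and vascular smooth muscle cells are the usual producers of all of them in the heart, and pressure overload is known for raising many of them.

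Per length, the order of the genes differed between the cultures and the hearts. In S_V cells Fn1 stood highest at 1102 ± 71.6 FPKM (SD, n = 3), followed by Bgn at 933 ± 72.5 FPKM and Eln at 781 ± 69.3 FPKM. The ranges of Bgn and Eln overlapped, while that of Fn1 lay above both. Fbn1 had 139 ± 9.17 FPKM and Lox 116 ± 9.65 FPKM, without overlap. Fmod at 43.3 ± 1.73 FPKM and Dcn at 33.5 ± 2.09 FPKM came next, also apart. Vcan at 16.8 ± 2.9 FPKM, Lum at 14.5 ± 2.12 FPKM and Fbln1 at 13.2 ± 0.775 FPKM were the lowest, and each overlapped its neighbour in the order. In DKD_915 cells Bgn averaged 702 ± 80.1 FPKM and Fn1 654 ± 75 FPKM, with overlapping ranges. In Sham_Veh hearts Dcn was the highest at 103 ± 12.9 TPM (SD, n = 3), and Bgn had 32.1 ± 3.78 TPM. Lum at 10.1 ± 2.25 TPM and Fbln1 at 7.11 ± 0.494 TPM followed, and Fn1 had 2.62 ± 0.357 TPM. Fbn1 at 1.11 ± 0.0902 TPM and Vcan at 1.07 ± 0.624 TPM overlapped. Eln at 0.349 ± 0.0961 TPM, Lox at 0.241 ± 0.0378 TPM and Fmod at 0.0866 ± 0.0429 TPM closed the order. The order of FPKM and that of TPM rest on different normalizations and annotations, so no level was compared across species.

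The counts of the 10 genes together came to 0.945% of the TMM-adjusted library size in DKD_915 cells, 1.57% in DKD_Veh, 0.783% in S_915 and 1.69% in S_V cells, with Fn1 alone at 55.4% to 58.3% of that sum. In the hearts they came to 0.125% of the TMM-adjusted library size in TAC_332, 0.14% in TAC_Veh, 0.0646% in Sham_332 and 0.0645% in Sham_Veh. Libraries held 12013379 to 18315341 counts in rat and 11375894 to 16599899 in mouse. Both siRNA targets were low in every DKD library, with Esrra at 12.7 to 21.9 CPM against 169 to 229 CPM in S libraries, and Esrrg at 16.1 to 25.1 CPM against 130 to 302 CPM. CPM are counts scaled to the TMM-adjusted library size. The cultures labelled as isolated cardiomyocytes held abundant transcripts of genes listed here as markers of other cells. The 10 fibroblast markers summed to 8180 to 10145 CPM in DKD_915, 12233 to 13440 in DKD_Veh, 7029 to 7680 in S_915 and 12822 to 13675 CPM in S_V. The 8 smooth muscle and pericyte markers summed to 2379 to 2785, 4827 to 5491, 1868 to 2270 and 4753 to 5009 CPM in the same groups, and the 9 heart muscle markers to 8757 to 11071, 11052 to 11488, 20581 to 21649 and 15415 to 17109 CPM. No listed marker that was found stood at 0 in every library of a group. In such bulk samples fewer cells of a type and less RNA per cell cannot be told apart. Which cells the marker transcripts came from was not tested.

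**Figure D1:**
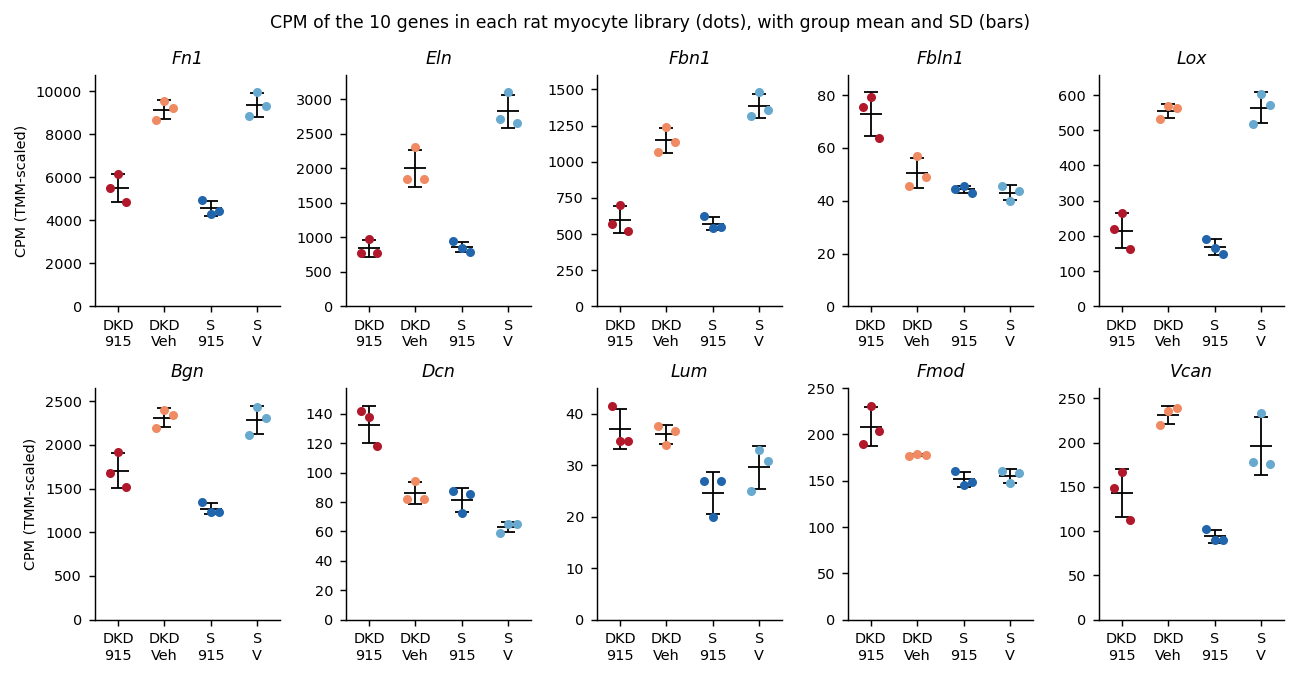
CPM of each of the 10 genes in the 12 rat libraries (dots), with group mean and SD (bars), from DKD_915 at the left to S_V at the right. Fn1, Eln, Fbn1, Lox, Bgn and Vcan lie lower in every 915 library than in every vehicle library of the same siRNA, and Dcn lies higher.

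With 915 fibronectin and 3 of the 4 elastic fibre genes, Eln, Fbn1 and Lox, fell in both kinds of cell, while Fbln1 did not. Of the 10 genes, 6 fell and 1 rose in S cells, where 42.2% of all tested genes passed an adjusted p under 0.05, 20.6% lower and 21.5% higher. In DKD cells 6 fell and 3 rose, where 35.7% of all tested genes passed, 17.6% lower and 18.1% higher. The median log2 change of the 10 genes was -0.94 in S cells and -0.57 in DKD cells, and that of all tested genes was 0.01 and -0.00. The 6 that fell were the same genes in both: Fn1, Eln, Fbn1, Lox, Bgn and Vcan. The ranges of these 6 did not overlap between agonist and vehicle in either cell, and over all tested genes 25.6% lay wholly below the vehicle range in S cells and 22.9% in DKD cells. Dcn lay wholly above in both, and Fbln1 and Fmod in DKD cells, against 27.3% of all tested genes in S cells and 22.7% in DKD cells. None of these 12 falls was lost or turned round under any alternative run.

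Fn1 had 4964, 4313 and 4414 CPM in S_915 libraries, against 8844, 9941 and 9285 CPM in S_V libraries. In DKD cells it had 5490, 6156 and 4852 CPM with 915, against 8656, 9524 and 9225 CPM with vehicle. It fell by 1.04 (SE 0.08, adjusted p = 6.4e-10) in S cells and by 0.73 (SE 0.08, adjusted p = 1.64e-07) in DKD cells on the log2 scale. Eln, the elastic core, had 946, 841 and 794 CPM in S_915 and 2723, 3103 and 2665 CPM in S_V. Its DKD values were 767, 979 and 774 CPM with 915 and 1851, 2309 and 1845 CPM with vehicle. All 6 agonist libraries thus lay below all 6 vehicle libraries. Eln fell by 1.72 (SE 0.13, adjusted p = 4.02e-06) in S cells and by 1.25 (SE 0.13, adjusted p = 5.03e-05) in DKD cells. Lox, the cross-linking enzyme, had 192, 166 and 148 CPM in S_915, against 517, 603 and 572 CPM in S_V. Its DKD libraries gave 219, 264 and 163 CPM with 915 and 531, 570 and 563 CPM with vehicle. Lox changed by -1.74 (SE 0.17, adjusted p = 4.17e-05) in S cells and by -1.37 (SE 0.17, adjusted p = 0.000249) in DKD cells. Fbn1, which forms the microfibrils, had 624, 545 and 547 CPM in S_915 and 1319, 1479 and 1357 CPM in S_V, a change of -1.28 (SE 0.11). In DKD cells its values of 568, 702 and 524 CPM with 915 and 1066, 1241 and 1135 CPM with vehicle gave -0.94 (SE 0.11). Counts of Fn1, Fbn1 and Lox could include reads from genes on the other strand, because the libraries were unstranded, but the 4 overlapping genes averaged at most 0.771 CPM.

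Fbln1 did not follow the other elastic fibre genes. It had 44.5, 45.7 and 43.1 CPM in S_915 and 45.6, 40.1 and 43.6 CPM in S_V, ranges that overlap. In DKD cells it had 75.5, 79.4 and 63.6 CPM with 915 and 45.6, 57 and 49 CPM with vehicle, ranges that do not. Its log2 change was 0.04 (SE 0.09, adjusted p = 0.728) in S cells and 0.53 (SE 0.08, adjusted p = 2.96e-05) in DKD cells.

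Among the proteoglycans, biglycan and versican fell with 915 and decorin rose. Bgn had 1341, 1230 and 1237 CPM in S_915, against 2110, 2434 and 2310 CPM in S_V. In DKD cells its values were 1673, 1918 and 1518 CPM with 915 and 2187, 2403 and 2340 CPM with vehicle. The changes were -0.85 (SE 0.07, adjusted p = 1.66e-08) in S cells and -0.44 (SE 0.07, adjusted p = 8.3e-05) in DKD cells. Vcan, which holds hyaluronan in the matrix, had 103, 90.1 and 89.5 CPM in S_915 and 178, 234 and 176 CPM in S_V, a change of -1.06 (SE 0.16). Its DKD libraries gave 149, 167 and 113 CPM with 915 and 220, 236 and 239 CPM with vehicle, a change of -0.70 (SE 0.16, adjusted p = 0.00797). Dcn went the other way, with 87.2, 72.3 and 85.3 CPM in S_915 and 58.9, 65.3 and 65 CPM in S_V, a rise of 0.37 (SE 0.08, adjusted p = 0.00122). In DKD cells Dcn had 142, 138 and 118 CPM with 915 and 82, 94.6 and 81.8 CPM with vehicle, a rise of 0.62 (SE 0.08, adjusted p = 5.16e-06). Dcn and Lum are neighbours on rat chromosome 7 (rn6, 38742051 to 38782323 and 38819771 to 38826862, both on the plus strand). Lum had 27, 19.9 and 26.9 CPM in S_915 and 25, 33 and 30.8 CPM in S_V, a log2 value of -0.27 (SE 0.12, adjusted p = 0.0791) that passed without S_V replicate 1 (-0.37, adjusted p = 0.0147). In DKD cells it had 41.6, 34.8 and 34.8 CPM with 915 and 37.6, 34 and 36.6 CPM with vehicle (0.04, SE 0.11). Fmod had 160, 145 and 149 CPM in S_915 and 161, 147 and 158 CPM in S_V (-0.04, SE 0.06). In DKD cells it had 190, 231 and 204 CPM with 915 and 177, 179 and 178 CPM with vehicle, a rise of 0.23 (SE 0.06, adjusted p = 0.00429).

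The fibroblast and smooth muscle markers moved with these falls. Of all tested genes 20.6% fell and 21.5% rose with 915 in S cells, and 17.6% fell and 18.1% rose in DKD cells. Under 915, 8 of the 10 fibroblast markers fell in S cells and 6 of 10 in DKD cells, with none higher, among them Col1a1 at -0.95 (SE 0.09) in S and -0.50 (SE 0.09) in DKD cells and the collagen receptor Ddr2 at -0.86 and -0.56. Of the 8 smooth muscle and pericyte markers 5 fell and 1 rose in S cells, and 5 fell and 2 rose in DKD cells. Lmod1, an actin nucleator of smooth muscle, stood at -1.83 (SE 0.08) in S and -1.48 (SE 0.08) in DKD cells. Of the 5 epicardial markers 3 fell in S cells, and 1 rose and 1 fell in DKD cells, with the epicardial Upk3b at -1.90 and -1.99. Their part in the changes of the 10 genes was not tested. The heart muscle markers did not fall with 915 in S cells as a list, with 4 of 9 higher and 2 lower, while 1 rose and 3 fell in DKD cells.

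The log2 change under 915 was less negative or more positive in DKD than in S cells for all 10 genes, by 0.25 to 0.48 (median 0.35, against 0.01 over all genes). The difference itself passed for 2 of them, Fbln1 at 0.48 (SE 0.12, adjusted p = 0.0263) and Bgn at 0.41 (SE 0.10, adjusted p = 0.031), where 3.73% of all tested genes passed, 1.74% in that direction and 1.99% in the other. The Fbln1 call was lost without any of 8 of the 12 libraries (DKD_915 replicates 1 and 2, DKD_Veh 1 and 3, S_915 1 and 3, S_V 1 and 3), with values of 0.41 to 0.48 and adjusted p up to 0.0952. The Bgn call was lost without any of 7 (DKD_915 replicate 1, DKD_Veh 1 and 3, S_915 2 and 3, S_V 2 and 3), with values of 0.36 to 0.43 and adjusted p up to 0.0978. Fn1, at 0.30 (SE 0.11, adjusted p = 0.132), passed without DKD_915 replicate 3 (0.38, adjusted p = 0.0152), and Fmod, at 0.26 (SE 0.08, adjusted p = 0.0893), without DKD_915 replicate 1 (0.33, adjusted p = 0.019). Eln at 0.47 (SE 0.18), Fbn1 at 0.34, Lox at 0.38, Dcn at 0.25, Lum at 0.30 and Vcan at 0.36 did not pass (adjusted p = 0.237 to 0.49). The smooth muscle markers Cspg4 and Cnn1 also passed in that direction, at 0.38 and 0.35, and 3 of 9 heart muscle markers passed in the other, with Actc1 at -0.88.

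By itself, in vehicle cells, the knockdown raised Dcn and Fmod and lowered Eln. Of the 10 genes 2 rose and 1 fell, where 20.4% of all tested genes passed, 7.75% higher and 12.7% lower. The ranges of 4 lay wholly higher and those of 2 wholly lower, against 17% and 19.1% of all tested genes. Dcn rose by 0.45 (SE 0.08, adjusted p = 0.000451), with every DKD_Veh library above every S_V library. Fmod, at 177, 179 and 178 CPM in DKD_Veh and 161, 147 and 158 CPM in S_V, rose by 0.20 (SE 0.06, adjusted p = 0.0201). Eln fell by 0.50 (SE 0.13, adjusted p = 0.0217), also without overlap. The Eln call was lost with only the groups compared (-0.51, adjusted p = 0.0524) and without S_V replicate 2, DKD_Veh replicate 1 or DKD_Veh replicate 3 (-0.45 to -0.43, adjusted p up to 0.0729), and the Fmod call without S_V replicate 2 or any DKD_Veh library (0.16 to 0.20, adjusted p up to 0.106). Fbn1 at -0.27 (SE 0.10, adjusted p = 0.103), Fbln1 at 0.23 (SE 0.09, adjusted p = 0.0643) and Lum at 0.29 (SE 0.12, adjusted p = 0.0899) did not pass although their ranges did not overlap, those of Fbln1 by less than the printed digits show. Fbln1 passed without DKD_Veh replicate 1 (0.30, adjusted p = 0.0285) and Lum without S_V replicate 2 (0.37, adjusted p = 0.0453). Fn1 at -0.03 (SE 0.08), Lox at -0.02 (SE 0.16), Bgn at 0.02 (SE 0.07) and Vcan at 0.24 (SE 0.15) did not pass.

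In cells on 915 the knockdown raised 7 of the 10 genes and lowered none, where 33.9% of all tested genes passed, 16.2% higher and 17.7% lower. The ranges of 6 lay wholly higher and of none wholly lower, against 21.9% and 22.4%. The rises were 0.71 (SE 0.09) for Fbln1, 0.70 (SE 0.08) for Dcn, 0.59 (SE 0.12) for Lum, 0.46 (SE 0.06) for Fmod and 0.42 (SE 0.07) for Bgn, with adjusted p from 4.55e-07 to 0.000521. Vcan rose by 0.60 (SE 0.16, adjusted p = 0.0188) and Fn1 by 0.27 (SE 0.08, adjusted p = 0.00813), though the Fn1 ranges overlapped. The Vcan call was lost without S_915 replicate 2 or 3 or DKD_915 replicate 1 or 2 (0.47 to 0.57, adjusted p up to 0.0709), and the Fn1 call without replicate 2 of either group (0.17 to 0.23, adjusted p up to 0.0678). Lox, at 0.35 (SE 0.17, adjusted p = 0.151), passed without DKD_915 replicate 3 (0.52, adjusted p = 0.0111), and Eln at -0.03 and Fbn1 at 0.06 did not pass. This comparison shares its libraries with the 915 comparisons, so its signs are not separate from theirs. Of the fibroblast markers 5 of 10 rose and none fell, of the smooth muscle markers 6 of 8 rose, and of the heart muscle markers all 9 fell, Actc1 by 1.58 (SE 0.07). In vehicle cells, where 12.7% of all tested genes fell and 7.75% rose, no fibroblast marker passed. There 6 of 9 heart muscle markers fell and 1 rose. The 8 leukocyte markers summed to 72.7 to 97 CPM in DKD_915, 60.9 to 64.8 in DKD_Veh, 45.6 to 46.9 in S_915 and 37.6 to 40.6 CPM in S_V. The 7 endothelial markers summed to 56.3 to 59.3, 43 to 45.7, 36.7 to 40.6 and 33.2 to 35.2 CPM in those groups. The part of these markers was not tested.

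Partners of the 10 genes were counted by list. With 915, 42.2% of all tested genes passed in S cells, 20.6% lower and 21.5% higher. In DKD cells 35.7% passed, 17.6% lower and 18.1% higher. Of 17 tested elastic fibre partners 13 fell and 1 rose with 915 in S cells (median log2 -0.65), and 10 fell and 1 rose in DKD cells (median -0.37). Efemp1, a fibulin family protein, stood at 8.77 CPM in S_915 and 26.1 CPM in S_V, a change of -1.57 (SE 0.14), and at -1.60 (SE 0.14) in DKD cells. Fbn2, the second fibrillin, changed by -1.01 and -1.09 (SE 0.10 each). Loxl4, a lysyl oxidase relative, rose by 0.55 (SE 0.10) in S cells, and Ltbp4, which tethers latent TGF-beta to microfibrils, by 0.29 (SE 0.10) in DKD cells. Of 8 fibronectin receptor genes 5 fell in each cell and none rose (median -0.62 and -0.58). Itga8, the partner chain of integrin beta 1 in a fibronectin receptor, changed by -1.51 in both cells (SE 0.11 each). Itgb1 itself stood at 916 CPM in S_915 and 1459 CPM in S_V, a change of -0.67 (SE 0.05), and at -0.63 (SE 0.05) in DKD cells.

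The enzymes that make chondroitin and dermatan sulfate, the side chains of Bgn, Dcn and Vcan, moved in both directions. With 915, 20.6% of all tested genes passed lower and 21.5% higher in S cells, and 17.6% and 18.1% in DKD cells. Of 19 genes 8 fell and 4 rose with 915 in S cells (median -0.08), and 7 fell and 3 rose in DKD cells (median -0.16). Csgalnact1, which starts the chondroitin chain, had 7.61 CPM in S_915 and 28.3 CPM in S_V, a change of -1.89 (SE 0.14), and stood at -1.36 (SE 0.14) in DKD cells. The epimerase gene Dsel changed by -0.76 and -0.63. B4galt7, an enzyme of the linker to the core protein, rose by 0.63 (SE 0.08) and 0.77 (SE 0.08), B3gat3, the last linker enzyme, rose by 0.45 in S cells and the polymerizing factor Chpf by 0.50 in DKD cells. Among 10 genes for hyaluronan and large proteoglycans 5 fell and 1 rose in S cells, and 3 fell and 2 rose in DKD cells. Has1, a hyaluronan synthase, rose by 0.53 (SE 0.14) and 0.88 (SE 0.14), while Hapln1, which links versican to hyaluronan, changed by -0.99 and -1.07 (SE 0.19 each) and the hyaluronan receptor Cd44 by -0.47 and -0.34. Of 10 further small leucine-rich proteoglycan genes 1 fell in S cells and 3 fell in DKD cells, with Prelp at -0.27 (SE 0.07) and Aspn at -2.41 (SE 0.70), from 0.133 CPM in DKD_915 and 0.755 CPM in DKD_Veh. In vehicle cells, where 20.4% of all tested genes passed with the knockdown, 2 of 17 elastic fibre partners rose and 1 fell, 1 of 8 receptors rose, 2 of 19 sulfate enzymes rose and 2 fell, and 1 of 10 hyaluronan genes rose. In 915 cells, where 33.9% of all tested genes passed, it raised 4 and lowered 1, raised 2 and lowered 1, raised 8 and lowered 3, and raised 3 and lowered none in the same lists, with Dsel at 0.57 (SE 0.08) and the xylosyltransferase Xylt2 at -0.64 (SE 0.07). The edgeR test called none of the 10 further small proteoglycan genes in either.

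**Figure D2:**
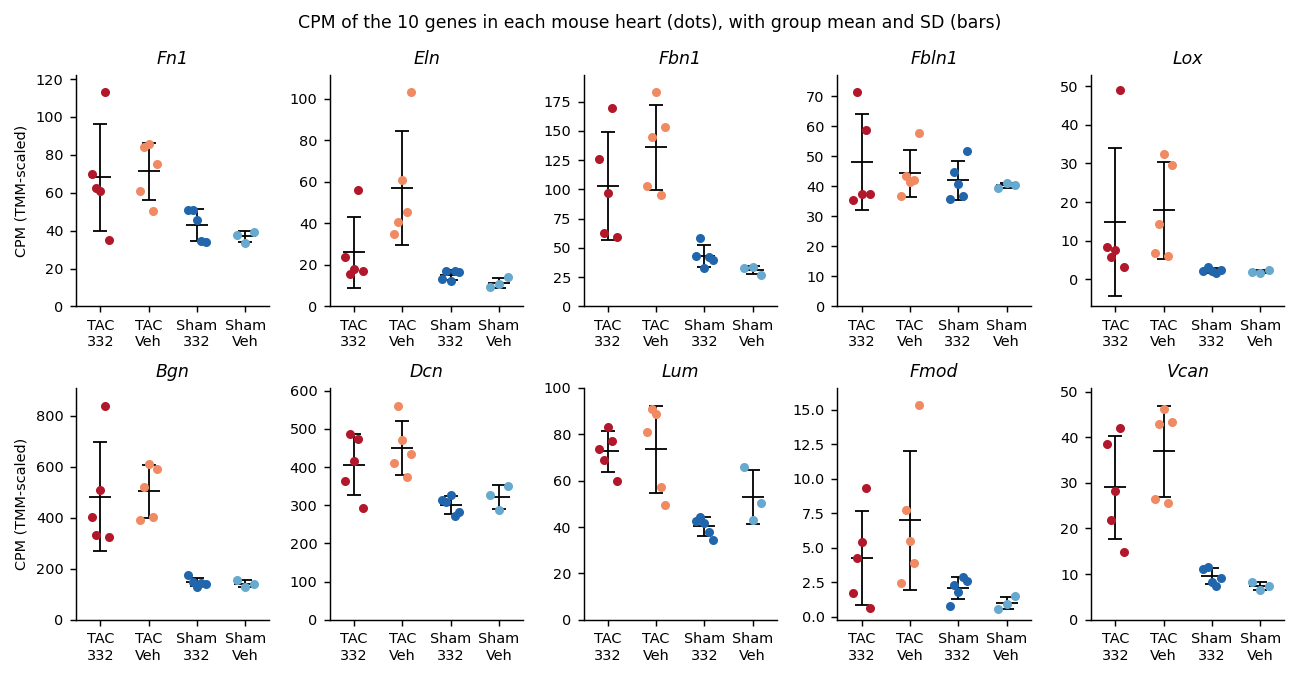
CPM of each of the 10 genes in the 18 mouse hearts (dots), with group mean and SD (bars), from TAC_332 at the left to Sham_Veh at the right. All TAC_Veh hearts lie above all Sham_Veh hearts for 8 genes, the exceptions being Fbln1 and Lum, and TAC_332 replicate 4 stands apart for Lox at 49 CPM and Eln at 55.9 CPM.

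Pressure overload raised most of the 10 genes. In vehicle hearts 8 rose, none fell and 2 did not pass, where 26.4% of all tested genes passed, 13.5% higher and 12.8% lower. In hearts on 332, 6 rose and 4 did not pass, where 23.8% of all tested genes passed, 11.8% higher and 12.1% lower. The median log2 value of the 10 genes was 1.90 in vehicle hearts and 0.96 in 332 hearts, and that of all tested genes was -0.01 and 0.00. The ranges of 8 genes did not overlap in the vehicle hearts (14.3% of all tested genes lay wholly above and 13.6% wholly below), and those of 4 in the 332 hearts (5.88% and 5.2%). Whether the TAC effect differed between 332 and vehicle hearts was tested as the difference of the 332 effects. It passed for none of the 10 in the main fit, and for 4 without the low-count filter.

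Among the elastic fibre genes Eln had 34.9, 40.8, 60.7, 45.6 and 103 CPM in TAC_Veh hearts, against 9.16, 10.9 and 14 CPM in Sham_Veh hearts. It rose by 2.02 (SE 0.42, adjusted p = 0.00338), and by 1.97 among replicates 1 to 3, whose files carry another set of sheet and lane numbers than replicates 4 and 5. Fbn1 had 103, 145, 183, 95.4 and 153 CPM in TAC_Veh and 32.5, 33.7 and 27 CPM in Sham_Veh, a rise of 2.14 (SE 0.38, adjusted p = 0.00123) and of 2.17 in replicates 1 to 3. In 332 hearts Fbn1 had 126, 62.8, 97.1, 170 and 59.4 CPM after TAC and 42.8, 58.1, 32.8, 42.4 and 39.3 CPM after sham, a rise of 1.26 (SE 0.30, adjusted p = 0.00786), with 1.08 in replicates 1 to 3 and 1.30 in replicates 4 and 5. A fit of replicates 1 to 3 alone gave 1.10 (adjusted p = 0.0642). Eln in 332 hearts had 23.8, 15.6, 17.8, 55.9 and 17.1 CPM after TAC and 13, 17.1, 12, 16.9 and 16.7 CPM after sham. These ranges overlap, and the value of 0.72 (SE 0.33, adjusted p = 0.138) did not pass, with 0.43 in replicates 1 to 3 and 0.88 in replicates 4 and 5.

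Lox spread widely among the TAC hearts. It had 6.68, 14.4, 32.4, 6.07 and 29.7 CPM in TAC_Veh hearts and 1.96, 1.57 and 2.3 CPM in Sham_Veh hearts. The value of 2.92 (SE 1.04, adjusted p = 0.054) missed the threshold although the groups did not overlap, with 2.84 in replicates 1 to 3. It passed without the low-count filter, with DESeq2 (3.01, adjusted p = 0.00167), in a fit of replicates 1 to 3 alone (3.18, adjusted p = 0.00573), with no term for the file-name set (3.18, adjusted p = 0.0341) and without TAC_Veh replicate 1 (3.14, adjusted p = 0.0474) or replicate 4 (3.09, adjusted p = 0.0311). In 332 hearts it had 8.41, 5.81, 7.64, 49 and 3.16 CPM after TAC and 2.06, 3.19, 2.21, 1.6 and 2.25 CPM after sham, a rise of 2.59 (SE 0.84, adjusted p = 0.0388), with 1.51 in replicates 1 to 3 and 2.64 in replicates 4 and 5. Without TAC_332 replicate 4 the Lox value was 1.37 (adjusted p = 0.156), and the call was also lost without TAC_332 replicate 3 or any Sham_332 heart (2.34 to 2.84, adjusted p up to 0.104).

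Fn1 had 60.7, 84, 85.9, 50.5 and 75 CPM in TAC_Veh hearts and 37.8, 33.7 and 39.2 CPM in Sham_Veh hearts. Its rise of 1.01 (SE 0.31, adjusted p = 0.0289; 1.04 in replicates 1 to 3) was lost without any Sham_Veh heart or without TAC_Veh replicate 2, 3 or 5 (0.94 to 1.05, adjusted p up to 0.0984). In 332 hearts Fn1 had 69.8, 62.6, 60.8, 113 and 35.1 CPM after TAC and 50.7, 50.8, 45.5, 34.7 and 33.8 CPM after sham (0.69, SE 0.25, adjusted p = 0.0672, with 0.39 in replicates 1 to 3 and 0.88 in replicates 4 and 5). It passed without the low-count filter, in a fit of replicates 1 to 3 alone (0.40, adjusted p = 0.0286) and with DESeq2 (0.68, adjusted p = 0.0435). Without TAC_332 replicate 4, the highest of its group for Fn1, Eln and Fmod, the values were 0.31 for Fn1, 0.35 for Eln and 0.62 for Fmod, and none passed. Without TAC_332 replicate 5, in which 8 of the 10 genes were the lowest of the group, Fn1 passed at 0.84 (adjusted p = 0.0134), Eln at 0.91 (adjusted p = 0.0487) and Fmod at 1.43 (adjusted p = 0.0481). The total count of Fbln1 was at 36.9 to 57.7 CPM in TAC_Veh and 39.5 to 41 CPM in Sham_Veh (0.08, SE 0.23), and at 35.6 to 71.3 CPM in TAC_332 and 35.8 to 51.7 CPM in Sham_332 (0.20, SE 0.19). It passed in neither.

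All 5 proteoglycan genes rose in vehicle TAC hearts. Bgn had 389, 519, 612, 403 and 591 CPM in TAC_Veh and 156, 128 and 140 CPM in Sham_Veh, a rise of 1.78 (SE 0.30, adjusted p = 0.000814; 1.82 in replicates 1 to 3). In 332 hearts it had 403, 332, 509, 839 and 324 CPM after TAC and 175, 148, 130, 145 and 140 CPM after sham, a rise of 1.70 (SE 0.24, adjusted p = 0.00031; 1.45 and 1.87 in the 2 sets of replicates). Every TAC heart of either treatment thus lay above every sham heart for Bgn. The same held for Vcan, which had 26.5, 42.8, 46.2, 25.5 and 43.4 CPM in TAC_Veh and 8.22, 6.52 and 7.48 CPM in Sham_Veh (2.37, SE 0.36, adjusted p = 0.000403; 2.32 in replicates 1 to 3). In 332 hearts Vcan had 38.4, 21.9, 28.1, 41.9 and 14.8 CPM after TAC and 11.1, 11.5, 8.3, 7.44 and 9.09 CPM after sham (1.61, SE 0.28, adjusted p = 0.00123; 1.48 and 1.58). Dcn, the most abundant of the 10 genes per length in Sham_Veh hearts, had 411, 561, 472, 374 and 433 CPM in TAC_Veh and 326, 287 and 350 CPM in Sham_Veh, a rise of 0.56 (SE 0.14, adjusted p = 0.00527; 0.58 in replicates 1 to 3). In 332 hearts it rose by 0.44 (SE 0.11, adjusted p = 0.00823; 0.41 and 0.43), with 363, 488, 416, 473 and 292 CPM after TAC and 315, 309, 326, 273 and 281 CPM after sham, ranges that overlap through replicate 5 of TAC_332.

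Lum had 80.9, 91.1, 88.6, 57.2 and 49.7 CPM in TAC_Veh and 65.8, 43 and 50.3 CPM in Sham_Veh. The ranges overlapped, with replicates 4 and 5 the lowest of the TAC_Veh hearts, and the rise of 0.59 (SE 0.15, adjusted p = 0.00719; 0.73 in replicates 1 to 3) did not pass without the term for the file-name set (0.47, adjusted p = 0.0728). In 332 hearts Lum had 73.7, 69, 83.1, 77.3 and 60 CPM after TAC and 42.4, 44.5, 41.7, 38 and 34.5 CPM after sham, without overlap, a rise of 0.86 (SE 0.12, adjusted p = 0.000145; 0.81 and 0.91). Fmod, the lowest of the 10 genes per length in Sham_Veh hearts, had 2.46, 7.75, 5.5, 3.92 and 15.3 CPM in TAC_Veh and 0.548, 0.956 and 1.48 CPM in Sham_Veh. Its rise of 2.47 (SE 0.85, adjusted p = 0.0475; 2.18 in replicates 1 to 3) was lost without any Sham_Veh heart or without TAC_Veh replicate 2, 3 or 5 (2.17 to 2.89, adjusted p up to 0.148), and with only the groups compared (2.37, adjusted p = 0.101) or the replicate block (2.46, adjusted p = 0.0533). In 332 hearts Fmod had 1.72, 4.28, 5.4, 9.32 and 0.659 CPM after TAC and 0.807, 2.33, 1.77, 2.85 and 2.62 CPM after sham (1.06, SE 0.63, adjusted p = 0.255), with 1.11 in replicates 1 to 3 and -0.06 in replicates 4 and 5.

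**Figure D3:**
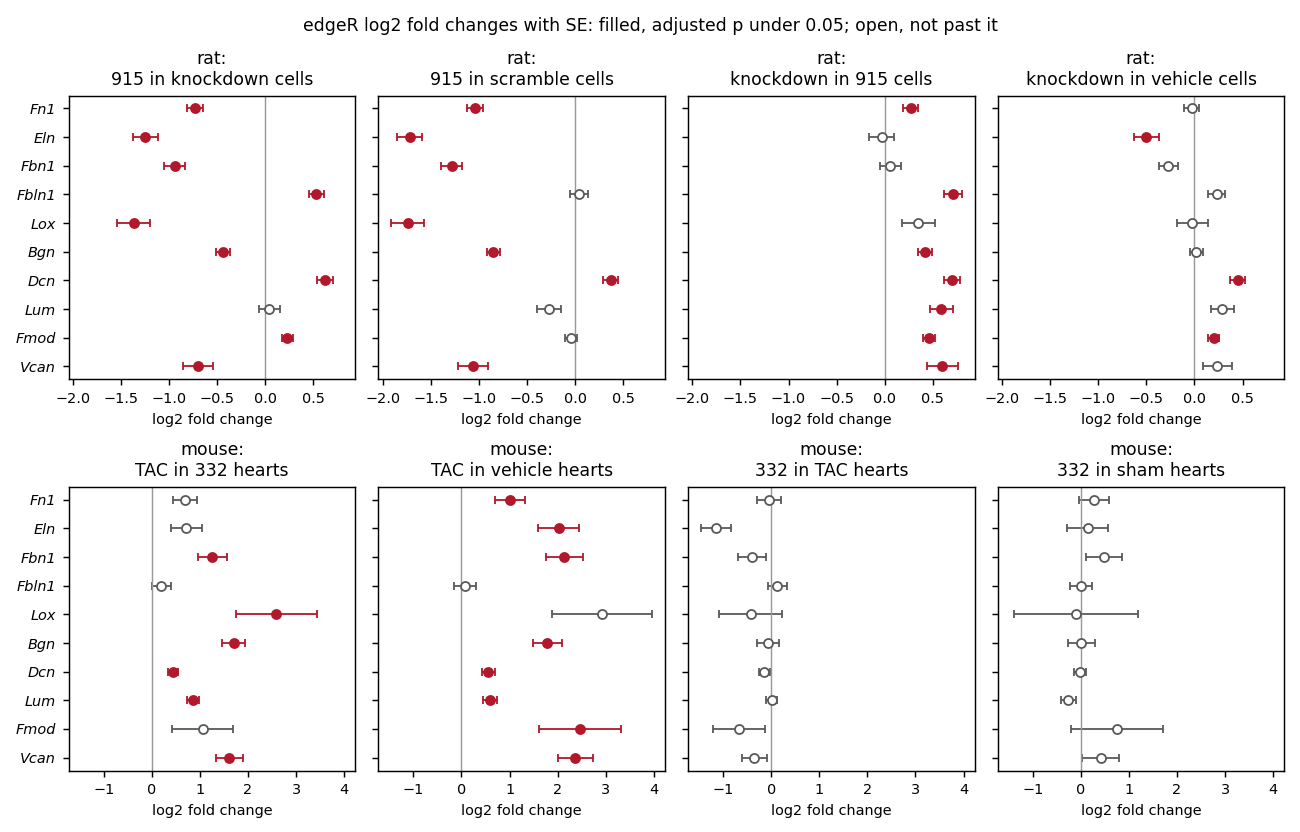
Log2 fold changes from edgeR with their SE (bars) for the 10 genes in 8 comparisons, filled where the adjusted p is under 0.05. The upper row shows the rat comparisons, where 6 genes lie below 0 under 915 in both cells, and the lower row the mouse comparisons, where 8 and 6 genes rose with TAC and none passed with 332.

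The fibroblast markers rose with TAC as well, 5 of 10 in vehicle hearts and 4 of 10 in 332 hearts, with none lower. Of all tested genes 13.5% rose and 12.8% fell with TAC in vehicle hearts, and 11.8% rose and 12.1% fell in 332 hearts. Their sum was 1338 to 2024 CPM in TAC_332, 1412 to 1845 in TAC_Veh, 1003 to 1305 in Sham_332 and 1024 to 1145 CPM in Sham_Veh. Col1a1 had 131 CPM in TAC_Veh and 30.6 CPM in Sham_Veh, a rise of 1.99 (SE 0.35), and rose by 1.51 (SE 0.28) in 332 hearts. Smooth muscle markers summed to 443 to 643, 480 to 711, 524 to 622 and 555 to 664 CPM in the same 4 groups, with 1 of 8 higher and 1 lower in each comparison. The 10 heart muscle markers summed to 45407 to 64284, 45761 to 56272, 57663 to 72316 and 55178 to 57897 CPM. Endothelial markers summed to 668 to 814, 704 to 776, 628 to 732 and 661 to 721 CPM, and leukocyte markers to 134 to 196, 182 to 247, 127 to 203 and 138 to 179 CPM. The 5 epicardial and mesothelial markers were highest in Sham_332 hearts, with sums of 3.69 to 6.14, 3.94 to 10.5, 7.71 to 17.9 and 3.45 to 9.48 CPM, and 4 of 5 were lower in TAC_332 than in Sham_332. The part of these markers in the changes was not tested.

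With 332 none of the 10 genes passed the main edgeR test, in TAC or in sham hearts, where 0.427% (0.135% higher, 0.292% lower) and 0.00712% (all higher) of all tested genes did. Without the low-count filter 5 of the 10 passed in TAC hearts, all lower, where 286 of all genes passed higher and 385 lower. In sham hearts 1 then passed, higher, where 114 of all genes passed higher and 77 lower. The ranges of all 10 overlapped in both, while 0.541% of all tested genes lay wholly higher and 0.783% wholly lower in TAC hearts, and 3.05% and 2.29% in sham hearts. Over all genes 60 passed in TAC hearts and 1 in sham hearts, and 1779 and 685 had an unadjusted p under 0.05. Of the 10 genes Eln alone had such a p in TAC hearts (0.00248) and none had in sham hearts, where DESeq2 also called none. In TAC hearts 8 of the 10 values were at or below -0.05 and their median was -0.25, against 0.01 over all genes. Eln had the lowest value of the 10, -1.15 (SE 0.31, adjusted p = 0.13), from 26.1 ± 17 CPM in TAC_332 and 57 ± 27.4 CPM in TAC_Veh (SD, n = 5 each). Within replicates 1 to 3 it was -1.23 and within replicates 4 and 5 it was -1.14. All TAC_332 hearts but replicate 4 were below every TAC_Veh heart for Eln, at 15.6 to 23.8 CPM against 34.9 to 103 CPM. Without that heart the Eln value was -1.54 (adjusted p = 0.0414), and the Wald test of DESeq2 on all hearts gave -1.16 (adjusted p = 0.0236). The other values in TAC hearts ran from -0.67 (SE 0.55) for Fmod, -0.43 (SE 0.66) for Lox, -0.40 (SE 0.29) for Fbn1 and -0.35 (SE 0.26) for Vcan to 0.13 (SE 0.19) for Fbln1. Without TAC_332 replicate 4 the Lox value was -1.61 and the Fmod value -1.10, without passing, and without TAC_Veh replicate 3 the Lox value was 0.02. In sham hearts they ran from -0.26 (SE 0.15) for Lum to 0.75 (SE 0.95) for Fmod, each with an adjusted p of 1. The difference between the 332 effects in TAC and sham hearts was -1.29 (SE 0.53, adjusted p = 0.414) for Eln and -0.88 (SE 0.46, adjusted p = 0.567) for Fbn1, and did not pass for any of the 10, where 0.0641% of all genes passed, 0.0214% higher and 0.0427% lower. That difference passed for 4 of the 10 without the low-count filter, all lower, where 207 of all genes passed higher and 314 lower. The SEs are wide here, and missing the threshold does not show that 332 left these genes as they were.

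**Figure D4:**
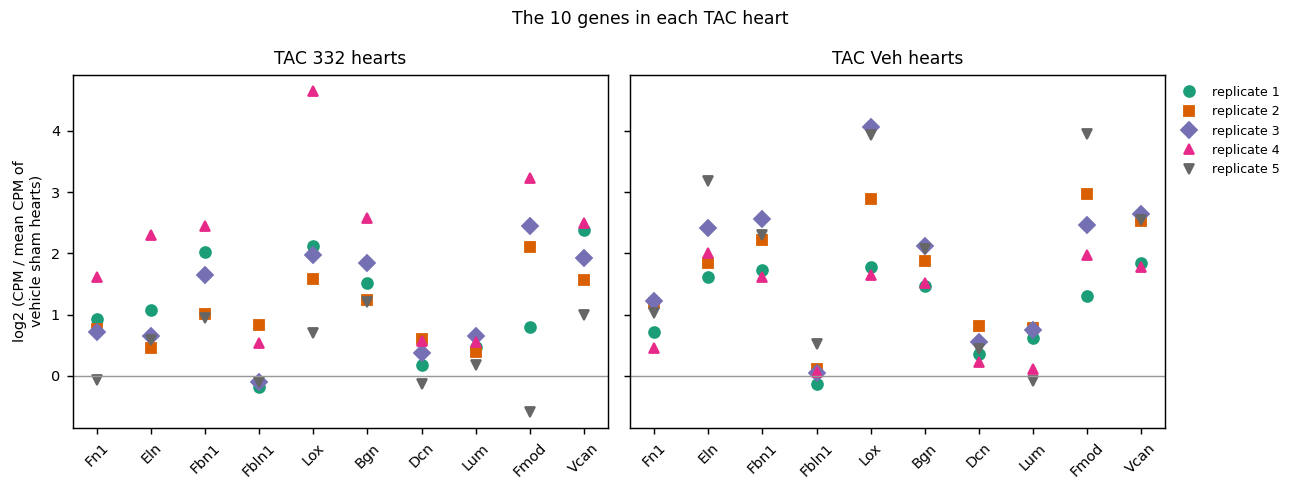
Log2 ratio of each TAC heart's CPM to the mean CPM of the Sham_Veh hearts, for the 10 genes, with TAC_332 hearts on the left and TAC_Veh hearts on the right and a symbol per replicate. In TAC_332, replicate 4 is the highest for 7 genes and replicate 5 the lowest for 8.

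The TAC hearts differed among themselves across the genes at once. Relative to the mean of Sham_Veh hearts, the median log2 ratio over the 10 genes was 0.99, 0.92, 1.18, 2.38 and 0.39 in TAC_332 replicates 1 to 5 and 1.38, 1.86, 2.27, 1.57 and 2.18 in TAC_Veh replicates 1 to 5. TAC_332 replicate 4 was the highest of its group for 7 genes and replicate 5 the lowest for 8. In TAC_Veh, replicate 3 was the highest for 5 genes and replicate 5 for 3, while replicates 1 and 4 were the lowest for 4 and 5 genes. The fibroblast marker sum was 1435, 1338, 1523, 2024 and 1355 CPM in the TAC_332 hearts and 1412, 1592, 1726, 1608 and 1845 CPM in the TAC_Veh hearts in the same order, so the heart with the highest sum in TAC_332 was also replicate 4. Replicates 4 and 5 carry other sheet and lane numbers than replicates 1 to 3, and the Sham_Veh hearts used as reference have none of these. The part of the file-name set and of the marker sum in these values was not tested.

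While the total of Fbln1 did not pass with TAC, the shares of its transcripts did not overlap between TAC and sham hearts. These shares were picked out after they were seen, so they are described with no test. Fibulin-1 exists in a C and a D form, which share most of the protein and differ in the domain at the C-terminal end, through splicing of the last exons. The stretches below show where the transcripts part, with the last 30 bases of the shared exon (chr15:85244277-85244306, plus strand, GRCm38, GENCODE M21) in lower case and the first 60 bases of the exon joined to it in capitals. That exon starts at chr15:85263259-85263318 for the D form, with 17 exons, and at chr15:85251445-85251504 for the C form, with 15 exons, and all of the bases shown are coding.
Fbln1 D form: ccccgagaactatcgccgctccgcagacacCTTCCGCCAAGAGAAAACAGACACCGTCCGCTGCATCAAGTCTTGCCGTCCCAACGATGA
Fbln1 C form: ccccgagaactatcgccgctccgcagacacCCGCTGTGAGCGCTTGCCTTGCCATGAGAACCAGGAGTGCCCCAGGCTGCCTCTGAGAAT

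Of the estimated counts assigned to the 2 forms, the D form held 41.5%, 43.9%, 56.6%, 57.7% and 42.2% in TAC_332 hearts and 36%, 31.4%, 30.6%, 36.8% and 35.3% in Sham_332 hearts. In vehicle hearts it held 39.8%, 40.3%, 47.5%, 42.7% and 52.6% after TAC and 38%, 30.5% and 28.3% after sham. Every TAC heart had a larger D share than every sham heart of the same treatment. The difference of means was 14.4 percentage points in 332 hearts and 12.3 points in vehicle hearts. Within replicates 1 to 3 the differences were 14.7 and 10.3 points, and within replicates 4 and 5 of the 332 hearts 13.9 points. These shares were not scaled to length, and the D transcript has 3659 bases against 2273 bases for the C transcript. With TPM in place of estimated counts the differences were smaller, at 11.5 points in 332 hearts and 8.87 points in vehicle hearts. In estimated counts, the D form averaged 336 ± 151 in TAC_332, 306 ± 99.6 in TAC_Veh, 183 ± 45 in Sham_332 and 163 ± 25.3 in Sham_Veh hearts. The C form averaged 357 ± 175, 371 ± 51.8, 353 ± 77.5 and 344 ± 41.7 in the same groups (SD, n = 5, 5, 5 and 3). Between 332 and vehicle the share differed by 3.8 points in TAC hearts and by 1.76 points in sham hearts, with overlapping ranges. With each heart left out in turn, the difference between TAC and sham was 12 to 16.1 points in 332 hearts and 10.3 to 15.2 points in vehicle hearts. That between 332 and vehicle was 1.47 to 5.82 points in TAC hearts and -0.212 to 4.62 points in sham hearts, lowest without Sham_Veh replicate 3 and highest without Sham_Veh replicate 1. Salmon divides reads between overlapping models by estimation.

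**Figure D5:**
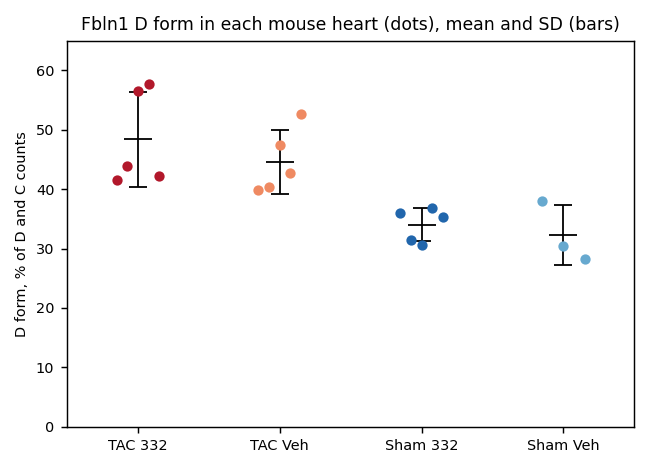
Share of the Fbln1 D form among the estimated counts of the D and C forms in each mouse heart (dots), with group mean and SD (bars). TAC_332 hearts range from 41.5% to 57.7% and TAC_Veh hearts from 39.8% to 52.6%, above Sham_332 hearts at 30.6% to 36.8% and Sham_Veh hearts at 28.3% to 38%.

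The forms of Fn1 and Vcan were also described and not tested. The EDA exon of Fn1 (chr1:71603660-71603929, minus strand, 270 bases), whose inclusion marks cellular fibronectin as against the plasma form, was in 15.7% ± 9.06 of the counts of full-length models in TAC_332, 19.9% ± 6.37 in TAC_Veh, 18.1% ± 15.3 in Sham_332 and 14.6% ± 9.35 in Sham_Veh hearts (SD). The ranges overlapped in every comparison. The EDB exon (chr1:71613763-71614035, 273 bases) stood at 0.623%, 0.73%, 7.62% and 0.664% in the same groups. The Sham_332 hearts held 12.3%, 10.9% and 14.9% in replicates 1 to 3 and 0 in replicates 4 and 5, while no other heart was above 2.19%. In every group with replicates 4 and 5, those hearts had 0 counts for the EDB exon. The EDB exon was thus assigned counts only within the file-name set of replicates 1 to 3, and the part of the set was not tested. Sham_332 replicates 1 to 3 had 65.8 to 72 estimated counts a heart. Their EDA counts were these same counts, because the model with the EDB exon also holds the EDA exon. Vcan was assigned mostly to V0, the form with both glycosaminoglycan exons, at 91.3% ± 10.3, 87.1% ± 15, 87.7% ± 16.2 and 100% in the same 4 groups. V1, which lacks the alpha exon, held 0 to 23.7% in TAC_332, 0 to 30.5% in TAC_Veh, 0 to 29.1% in Sham_332 and 0 in every Sham_Veh heart. A retained-intron model of Fn1 was assigned 29.2% ± 19.8 of the gene's counts in TAC_332, 21.6% ± 9.5 in TAC_Veh, 9.82% ± 13 in Sham_332 and 7.56% ± 7.93 in Sham_Veh hearts, with overlapping ranges.

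The lists of partner genes were counted in the hearts as well, where 26.4% of all tested genes passed with TAC on vehicle and 23.8% on 332. Of 19 elastic fibre partners 11 rose and 3 fell in each of the 2 comparisons, with a median log2 of 0.77 in vehicle and 0.63 in 332 hearts. Fbln2, a fibulin of microfibrils, had 141 CPM in TAC_Veh and 63.9 CPM in Sham_Veh (1.18, SE 0.19). Ltbp4 rose by 0.61 (SE 0.12) in vehicle and 0.60 (SE 0.10) in 332 hearts, and Mfap4, a microfibril-associated protein, by 3.01 (SE 0.43) in 332 hearts, with 38.5 CPM in TAC_332 and 4.67 CPM in Sham_332. Ltbp1, a relative of Ltbp4, changed by -0.53 (SE 0.09) in vehicle and -0.60 (SE 0.07) in 332 hearts, Emilin2, an elastic fibre glycoprotein, by -1.38 (SE 0.31) in vehicle hearts and Efemp1 by -1.92 (SE 0.37) in 332 hearts. Of the 6 further small leucine-rich proteoglycan genes 3 rose and 1 fell in each, with Prelp at 1.08 (SE 0.19) and 0.81 (SE 0.16) and the asporin gene Aspn at 1.23 (SE 0.25) and 1.00 (SE 0.20). Podn fell by 0.71 (SE 0.19) in vehicle hearts and the osteoglycin gene Ogn by 0.31 (SE 0.10) in 332 hearts. Of the 8 fibronectin receptor genes 4 rose in vehicle hearts, among them Itga5 at 0.87 (SE 0.14) and Itgb3 at 1.35 (SE 0.27), and 1 rose in 332 hearts. Of 18 sulfate chain enzymes 5 rose in vehicle and 6 in 332 hearts, with Chpf at 0.75 (SE 0.18) and 0.65 (SE 0.14) and none lower, and of 4 hyaluronan genes 2 rose in each. No gene of these 5 lists passed with 332 in TAC or in sham hearts, where 0.427% and 0.00712% of all tested genes did.

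The nearest genes by pattern were found from the 4 group means of log2 CPM, each centred on their mean, as the root mean square distance over 4 groups. In rat cells, among 11169 genes with at least 5 CPM, the nearest to Fn1 were Itm2a (0.017) and Ptpn14 (0.019), to Fbn1 the peroxidasin gene Pxdn (0.022), to Lox the prolyl hydroxylase gene P4ha3 (0.025) and the follistatin-like gene Fstl1 (0.030), and to Lum the complement protease gene C1s (0.007). The nearest to Fmod was Litaf (0.004), to Vcan Art4 (0.006) and to Bgn Creb3l1 (0.012). For Dcn it was Nup210 (0.025), for Fbln1 Trank1 (0.030) and for Eln Cmklr1 (0.041). Among the 10 genes themselves, Fn1 was closest to Bgn (0.134), and Fbln1 to Dcn (0.131) and Fmod (0.132). In mouse hearts, among 9680 genes, the nearest to Vcan was the collagen gene Col5a2 (0.038), to Fbn1 Col3a1 (0.055), to Lox the matricellular gene Ccn2 (0.121) and to Fn1 Rasl11b (0.016). The nearest to Dcn was Olfr1033 (0.007), to Lum Synm (0.032) and to Bgn Bdh1 (0.037). Nupr1 was the nearest to both Fmod (0.201) and Eln (0.221). Fbn1 and Vcan were 0.139 apart, and Lox and Fbln1 1.151. With 4 points per gene such distances describe these groups and carry no test.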

How the data were processed

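The 12 rat and 18 mouse libraries were analysed as separate tables. Rat values are counts per gene in the authors' deposited table, and its FPKM were used for levels per length. For rat, rn6 is the build and HISAT2 (2.0.5), featureCounts (1.5.0-p3), StringTie (1.3.3b) and DESeq2 (1.20.0) are the tools in the submitters' processing notes, with no role given. For mouse those notes list Salmon, fastp and DESeq2 with no version. The mouse build is not given in the sources used here. Mouse values are Salmon's estimated counts per transcript, per the file headers, and the TPM beside them were used, as deposited, for levels per length. The 140790 transcripts were summed to 54307 genes, and the 7.43% of sums not whole (tolerance 1e-06) were rounded.

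Genes were kept by filterByExpr with a minimum count of 10 and tested in edgeR 4.0.16 (R 4.3.3, limma 3.58.1) by the quasi-likelihood F-test (robust, TMM factors), all 4 groups of a species together and, for mouse, a term for the set of sheet and lane numbers in the file names (replicates 1 to 3 against 4 and 5; Sham_Veh has none of the second). P-values were adjusted by Benjamini-Hochberg over all tested genes at 0.05. TMM factors were 0.954 to 1.06 in rat and 0.884 to 1.15 in mouse. Log2 fold changes are treated over vehicle, DKD over S or TAC over sham. Shares of transcript forms used exon content from GENCODE M21, in which all 29 transcripts of Fn1, Vcan and Fbln1 have the same identifier and length. The fits were tested on simulated data. Alternatives were DESeq2 1.42.0, RLE scaling, no low-count filter, only the groups compared, the replicate block, each library left out and, in mouse, no set term or replicates 1 to 3 only. Depth limits precision, and counts of Fmod and Lox in sham hearts were the lowest. The 10 genes, the partner and marker lists and the tests were chosen with earlier results of these data known. Text names all 10 genes, up to 2 partners per direction by adjusted p where at least 3 of a list passed, and up to 2 markers per list.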

Additional observations from a re-analysis of the deposited data

Results flagged for a closer look

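Among the 10 genes in the 3 mouse groups of 5 hearts, 30 groups of values were examined for a heart far from the others, and chance alone flags about 1 in 20. In 2 of them the highest heart stood apart, both times TAC_332 replicate 4. Eln was at 55.9 CPM in that heart and next at 23.8 CPM, a gap of 0.798 of the group's range. Lox was at 49 CPM and next at 8.41 CPM, a gap of 0.886 of the range. The same heart had the highest fibroblast marker sum of its group, 2024 CPM.

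For 2 genes the effect of 915 differed between DKD and S cells by a test of the difference itself, Fbln1 at 0.48 (adjusted p = 0.0263) and Bgn at 0.41 (adjusted p = 0.031) on the log2 scale. Both calls depended on single libraries, as given in the results.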

How the results depend on the processing

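No value that had passed changed sign under any alternative, and under 915 no call was lost in S or DKD cells. Values that had not passed crossed 0, none of them passing on the other side. On leaving out a library these were, with lowest and highest, for 915 in DKD cells Lum (-0.05 to 0.09), for the knockdown in vehicle cells Fn1 (-0.08 to 0.01), Lox (-0.08 to 0.03) and Bgn (-0.04 to 0.06), for the knockdown in 915 cells Eln (-0.16 to 0.04) and Fbn1 (-0.07 to 0.15). In mouse they were for TAC in 332 hearts Fbln1 (-0.03 to 0.31), for 332 in TAC hearts Fn1 (-0.43 to 0.11), Fbln1 (-0.10 to 0.24), Lox (-1.61 to 0.02), Bgn (-0.39 to 0.05) and Lum (-0.09 to 0.07), for 332 in sham hearts Eln (-0.04 to 0.32), Lox (-0.41 to 0.10), Bgn (-0.10 to 0.08) and Dcn (-0.10 to 0.04), for the difference of the 332 effects Fbln1 (-0.05 to 0.27), Lox (-1.93 to 0.28) and Bgn (-0.49 to 0.08). Lum for 332 in TAC hearts, at 0.01, was -0.02 without the set term and -0.21 in replicates 1 to 3. Lox for 332 in sham hearts, at -0.10, was 0.35 with only the groups compared, 0.21 without the set term, 0.36 in replicates 1 to 3 and 0.05 with DESeq2. The number of the 10 genes called for the knockdown in vehicle cells, 3, was 5 without the low-count filter and 5 with only the groups compared (where Eln was lost), and 1 to 3 when 1 library was left out. For the difference of the 915 effects it was 0 to 3 on leaving out a library, and the number of all genes called was 259 to 677, against 566. For 332 in TAC hearts, 5 of the 10 genes passed without the filter, all lower, 1 with DESeq2 and 0 to 1 on leaving out a heart. For 332 in sham hearts, 1 passed without the filter and 1 with only the groups compared (Fn1, 0.40, adjusted p = 0.0214). For the difference of the 332 effects, 4 passed without the filter, all lower. Leaving out a heart gave 6 to 9 of the 10 genes for TAC in vehicle hearts and 5 to 9 in 332 hearts. Leaving out a library gave 7 to 8 for 915 in S cells and 5 to 8 for the knockdown in 915 cells.

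Over all genes, TAC in 332 hearts called 3349, against 2208 without the term for the file-name set, 1662 in replicates 1 to 3 and 2488 to 3668 on leaving out a heart. TAC in vehicle hearts called 3703, and 2437 to 3747 on leaving out a heart. The 60 calls for 332 in TAC hearts were 671 without the filter, 30 with only the groups compared, 13 without the set term, 10 in replicates 1 to 3, 175 with DESeq2 and 22 to 94 on leaving out a heart. The 1 call in sham hearts was 191, 28, 0, 12 and 3 under the same 5 settings, and 0 to 2 on leaving out a heart. The 9 calls for the difference of the 332 effects were 521 without the filter, 0 without the set term, 5 in replicates 1 to 3, 81 with DESeq2 and 0 to 25 on leaving out a heart. The causes were not tested, beyond fewer samples where hearts were left out.

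Same-numbered rat libraries did not deviate together (correlations of -0.0529 to 0.0401), so no pairing by number was seen there. In mouse the correlations were -0.316 to 0.0557. The set term forces the deviations to sum to 0 within each file-name set, which pushes correlations between groups down. The mouse values therefore cannot show whether the numbers pair hearts. With a replicate block, 4 of the 10 genes passed for the knockdown in vehicle cells (Fbn1 added), 3 for the difference of the 915 effects (Eln added, adjusted p = 0.0267), 7 for TAC in vehicle hearts (Fmod lost) and 5 in 332 hearts (Lox lost, 2.42, adjusted p = 0.0836).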

Other observations

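By ratios of group means, the TAC change of most of these genes was larger on the TPM scale than on the CPM scale. The log2 ratio of group means was higher in TPM for all 10 genes in vehicle hearts, by 0.34 to 0.84 (median 0.52), and for 9 of 10 genes in 332 hearts, by -0.05 to 0.81 (median 0.42). Fn1 had a ratio of 1.79 in TPM and 0.95 in CPM between TAC_Veh and Sham_Veh means, and Dcn had 0.97 and 0.49. Mitochondrially encoded genes held 57% ± 7.18 of the TPM in TAC_Veh hearts and 61.3% ± 0.258 in Sham_Veh hearts (SD, n = 5 and 3), and 54.3% ± 6.31 in TAC_332 and 57.8% ± 6.44 in Sham_332 hearts (n = 5 each). In TAC_Veh replicates 1 to 5 Dcn had 146.8, 197.4, 154.9, 213.1 and 290.1 TPM, beside 411, 561, 472, 374 and 433 CPM. Sham_Veh hearts had 102.7, 89.45 and 115.3 TPM, beside 326, 287 and 350 CPM. Replicates 4 and 5 thus held more TPM for their CPM of Dcn, and Sham_Veh has no hearts of that file-name set. The part of the set and of the mitochondrial genes in the larger TPM ratios was not tested.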
